A study of Mus musculus with 8 samples.

Results

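The insulin-like growth factors and their binding proteins were examined in mouse bile duct cells sorted by surface ST14, a membrane serine protease also called matriptase. The genes were Igf1 and Igf2, the receptor gene Igf1r and Igfbp1 to Igfbp7, chosen by symbol, and all 10 were found among 20377 gene symbols. RNA came from wild-type C57BL/6 mouse livers, from cells other than hepatocytes that bound the duct antibody MIC1-1C3, lacked CD26 and were not blood cells. They were divided at the sort into ST14high and ST14low, with 4 libraries of each. The labels call the mice adult, give no exact age or sex, and do not tie libraries to animals, so p-values describe the spread between libraries, which may be technical.

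Insulin-like growth factors are secreted peptides that resemble insulin and act through the receptor tyrosine kinase encoded by Igf1r. In the adult mouse the liver is the main source of circulating IGF1, made by hepatocytes under growth hormone, whereas Igf2 is an imprinted gene that is mostly silenced in liver after birth. In the circulation and in tissues the peptides are carried by binding proteins, which prolong their life and hold them back from or deliver them to the receptor. Binding proteins 1 to 6 bind the growth factors with high affinity, and IGFBP7 binds them weakly.

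The results turned on 3 binding proteins, Igfbp5 and Igfbp6, which differed most between the populations, and Igfbp7, which was the most abundant and differed little. Their promoter windows are shown so that the pair with separate populations can be set beside a gene whose populations overlapped. RefSeq windows on build GRCm38.p6 were matched by symbol for all 10 genes, and each runs from 250 bases before to 50 bases after the annotated start, read in the direction of the gene. The Igfbp5 window lies at chr1:72874816-72875115 on the minus strand, that of Igfbp6 at chr15:102143936-102144235 on the plus strand and that of Igfbp7 at chr5:77407996-77408295 on the minus strand. Capitals mark matches, on either strand, to the TATA box letters TATAAA, the CCAAT box letters CCAAT and the GC box letters GGGCGG.
Igfbp5 promoter: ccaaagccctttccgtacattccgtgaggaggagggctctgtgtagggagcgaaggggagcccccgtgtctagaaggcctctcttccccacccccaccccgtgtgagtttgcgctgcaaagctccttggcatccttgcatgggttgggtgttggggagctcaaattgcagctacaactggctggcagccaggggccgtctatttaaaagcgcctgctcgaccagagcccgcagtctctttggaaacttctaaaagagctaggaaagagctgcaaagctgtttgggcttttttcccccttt
Igfbp6 promoter: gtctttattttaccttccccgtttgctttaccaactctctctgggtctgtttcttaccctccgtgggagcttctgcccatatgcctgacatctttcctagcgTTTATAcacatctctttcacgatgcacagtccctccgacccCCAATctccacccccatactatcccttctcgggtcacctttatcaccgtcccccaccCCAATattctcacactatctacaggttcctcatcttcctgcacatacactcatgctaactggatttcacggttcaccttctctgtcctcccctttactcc
Igfbp7 promoter: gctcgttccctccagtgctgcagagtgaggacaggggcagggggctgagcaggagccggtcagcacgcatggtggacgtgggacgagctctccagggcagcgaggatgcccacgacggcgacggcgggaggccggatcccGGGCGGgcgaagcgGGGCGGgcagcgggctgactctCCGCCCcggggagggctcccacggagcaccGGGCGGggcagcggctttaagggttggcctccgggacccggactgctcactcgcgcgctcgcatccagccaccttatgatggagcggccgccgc
The Igfbp7 window had a GC content of 73.3% and held 4 matches to GGGCGG, which was found in 35.7% of the 32851 windows in the table. The Igfbp6 window, at 49.7% GC, held 2 matches to CCAAT (found in 37.4% of windows) and 1 to TATAAA on the opposite strand (13.6% of windows). None of the 3 motifs was found in the Igfbp5 window, at 56.3% GC, which says only that these letters are not in it. The motifs did not overlap one another in these windows.

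Igfbp5 and Igfbp6 had higher levels, in counts scaled to library size (CPM), in every ST14high library than in any ST14low library. Igfbp7, Igf1 and Igf1r overlapped between the 2 populations, while Igfbp3, Igfbp4 and Igf2 were raised mainly in ST14high replicate 1. All 10 genes passed the filter on low counts and were tested with edgeR's quasi-likelihood test, which called 0 of 13749 genes at an adjusted p of 0.05, or 0% in either direction. At an unadjusted p under 0.05 there were 4 of the 10 genes, all higher in ST14high, where 6.89% of all genes tested were higher and 2.68% lower. Of these 4, Igf2 and Igfbp3 had an unadjusted edgeR p of 0.353 and 0.141 without ST14high replicate 1. DESeq2's Wald test, run on the same counts as an alternative, called 2 of the 10 genes, both higher (it set no adjusted p for Igf2), against 1.62% of all genes higher and 0.103% lower. In 2 of the 10 genes the populations did not overlap, both higher in ST14high, where this held for 4.09% of all genes, and the same count held without ST14high replicate 1, where the share of all genes was 6.74%. The median log2 fold change of the 10 genes was 0.43, beside 0.0023 over all genes tested, and 7 of the 10 lay above 0, where 50.3% of all genes did. The median leaned on ST14high replicate 1. Without it the median lay between Igfbp7 at 0.05 and Igf1r at 0.28, beside -0.015 over all genes tested. Then 8 lay above 0, now with Igf1, at 0.0087. Igf2, Igfbp3 and Igfbp4 moved from 2.80, 2.72 and 0.54 to 0.72, 0.93 and 0.02. Since RNA was measured in bulk, fewer cells of a type and less RNA per cell cannot be told apart in any of these values.

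**Figure D1:**
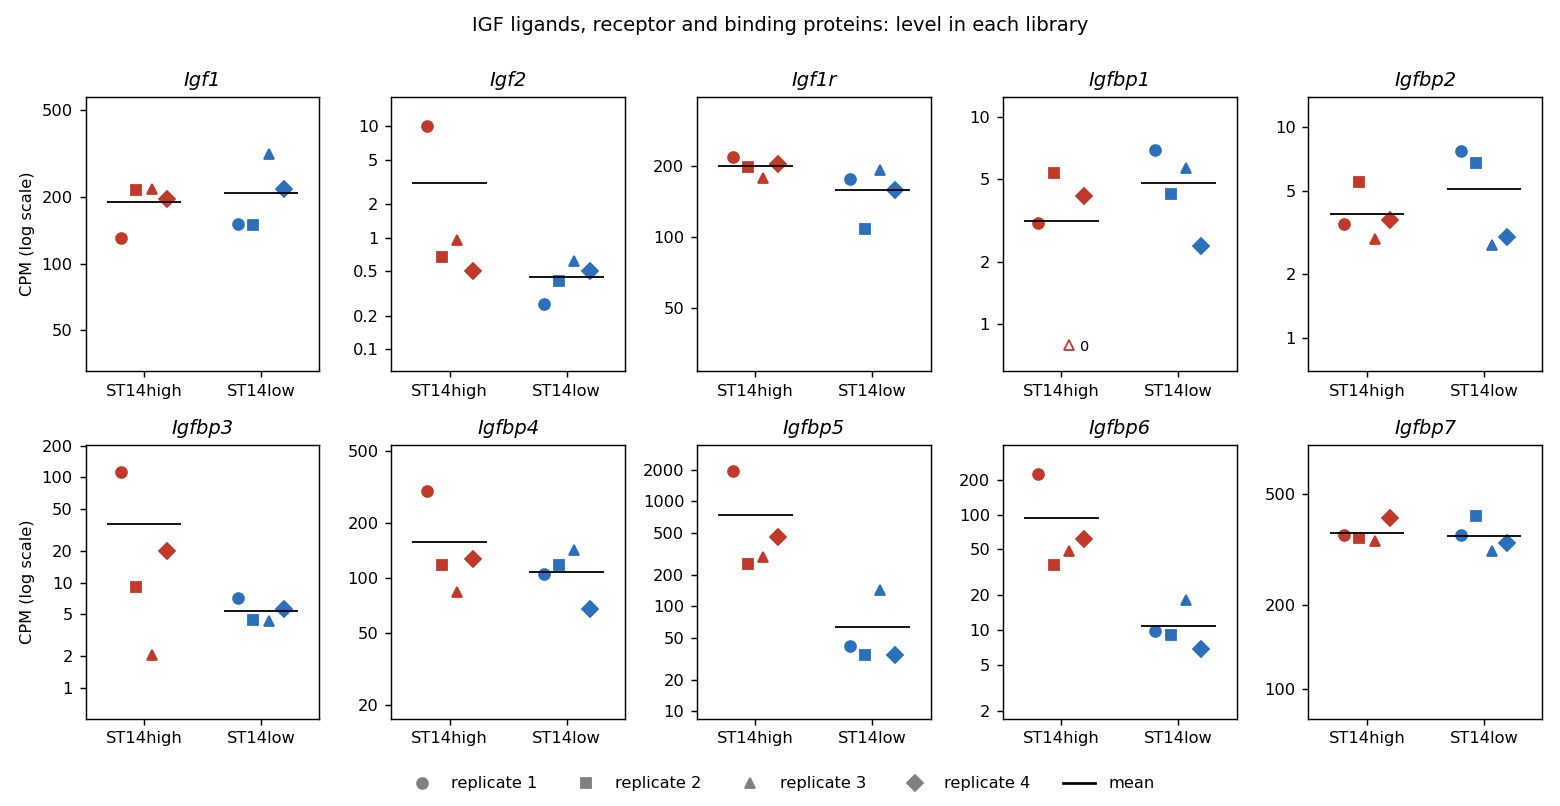
Level of each gene in CPM on a log axis, with 4 ST14high libraries (red) left of 4 ST14low libraries (blue), a marker shape for each replicate number and a line at the mean. The populations are separate only for Igfbp5 and Igfbp6, and ST14high replicate 1 is highest for Igf2, Igf1r, Igfbp3, Igfbp4, Igfbp5 and Igfbp6. The open triangle marks a count of 0.

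With 1 transcript kept per gene, the libraries held 6398307 to 42769988 counts, the fewest in ST14low replicate 3. ST14high replicate 1 stood apart in markers of other cells: 11 pancreatic acinar genes reached a summed 10348 CPM there, 1511 CPM in ST14high replicate 2 and no more than 116 CPM in any other library, with Amy2a5 at 0 throughout. The 11 duct epithelium markers, none at 0, reached 17262 to 27353 CPM together in ST14high, against 20915 to 29321 CPM in ST14low. St14 itself averaged 305 ± 32.5 CPM in ST14high, beside 329 ± 48.9 CPM in ST14low (SD, n = 4 each; edgeR adjusted p = 0.809). Summed macrophage markers (9 genes) ranged over 237 to 328 CPM in ST14high and 340.2 to 902 CPM in ST14low. Csf1r alone was at 161, 208, 235 and 201 CPM in the ST14high libraries. In ST14low it was at 228, 213, 312 and 199 CPM, and the populations overlapped. In ST14high replicate 3 nearly the whole sum of 237 CPM was Csf1r. All 9 genes had a fold change below 0. Endothelial markers (8 genes) spanned 19.1 to 973 CPM in ST14high and 256 to 1095 CPM in ST14low. Stellate cell and pericyte markers (7 genes) summed to 295 to 370.0 CPM in ST14high, against 238 to 499.9 CPM in ST14low, most of it from Rgs5 and Reln, whereas 5 of the 7 had a fold change above 0. Hepatocyte markers (8 genes) summed to 5607 to 13620 CPM in ST14high and 9171 to 16401 CPM in ST14low, and lymphocyte and pan-leukocyte markers (7 genes, 6 of them at 0 in at least 1 library) to 0.0707 to 11.1 and 7.02 to 25.3 CPM.

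Igf1 encodes the ligand that drives postnatal growth. It was at 131, 216, 219 and 196 CPM in ST14high replicates 1 to 4, and at 152, 151, 316 and 218 CPM in ST14low replicates 1 to 4. The populations overlapped, with ST14low replicate 3 highest and ST14high replicate 1 lowest. The log2 fold change, ST14high over ST14low, was -0.13 (SE 0.26; 95% interval -0.72 to 0.45; edgeR adjusted p = 0.885), and 0.13 without ST14low replicate 3. ST14low replicate 3, the library with the fewest counts, also had the highest macrophage marker sum (902 CPM). The endothelial, stellate cell and pericyte, and lymphocyte and pan-leukocyte sums were highest there too. Elsewhere the macrophage sum and Igf1 did not run together. The sum was 695 CPM in ST14low replicate 2, with Igf1 at 151 CPM, and 237 CPM in ST14high replicate 3, with Igf1 at 219 CPM. The part of these cells in the Igf1 level was not tested. The transcript kept, NM_010512, spans positions 87321800 to 87399792 of chromosome 10 in build mm9. It was the transcript with most reads of 5 listed for Igf1.

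Igf2, the fetal growth factor, was barely detected. It had 270 counts over the 8 libraries, 161 of them in ST14high replicate 1. Its level was 10.2, 0.675, 0.967 and 0.504 CPM in ST14high and 0.255, 0.409, 0.616 and 0.499 CPM in ST14low. Outside ST14high replicate 1 the populations overlapped at under 1 CPM. The log2 fold change of 2.80 (SE 1.05; edgeR adjusted p = 0.455; no adjusted p from DESeq2) was 0.72 without that library. The counted transcript lies on chromosome 7, from 149836672 to 149844709 on the minus strand of mm9.

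Igf1r, which encodes the receptor for both ligands, was at 218, 199, 178 and 204 CPM in ST14high, against 176, 109, 193 and 158 CPM in ST14low. The ranges overlapped, with ST14high replicate 1 highest and ST14low replicate 2 lowest. Its means of 199.5 ± 16.4 and 159 ± 36.4 CPM (SD, n = 4 each) differed by a log2 fold change of 0.33 (SE 0.18; 95% interval -0.07 to 0.72; edgeR adjusted p = 0.579). The gene was counted on chromosome 7 between 75097142 and 75378553 (mm9).

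Igfbp5 encodes a binding protein that attaches to extracellular matrix and is abundant in mesenchymal tissues. It was counted on chromosome 1 from 72904638 to 72921439, minus strand, of mm9, and its promoter was shown above. It was at 1926, 253, 295 and 461 CPM in the ST14high libraries and 41.4, 34.0, 144 and 34.0 CPM in the ST14low ones. The lowest ST14high library lay above the highest ST14low library, which was replicate 3. The means were 734 ± 799.6 CPM in ST14high and 63.3 ± 53.8 CPM in ST14low (SD, n = 4 each). The fitted difference was 11.7-fold, a log2 fold change of 3.55 (SE 0.78; 95% interval 1.8 to 5.3; edgeR adjusted p = 0.197). DESeq2 called the gene (adjusted p = 0.00367), and also in all 7 of the fits with 1 library left out that gave it an adjusted p, at most 0.0431. Without ST14high replicate 1 the ST14high mean was 336 ± 109.9 CPM (SD, n = 3) and the log2 fold change 2.43 (SE 0.50; edgeR adjusted p = 0.143).

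Igfbp6 encodes a binding protein that prefers IGF2 over IGF1. Counted on chromosome 15 from 101974616 to 101979943 of mm9, it was at 225, 36.9, 48.5 and 61.6 CPM in the ST14high libraries and 9.74, 9.002, 18.0 and 6.80 CPM in the ST14low ones. Again no ST14high library reached down to an ST14low library, and the highest library of each population was the same as for Igfbp5. The means of 93.0 ± 88.5 CPM in ST14high and 10.9 ± 4.91 CPM in ST14low (SD, n = 4 each) went with a fitted difference of 8.71-fold, a log2 fold change of 3.12 (SE 0.60; 95% interval 1.78 to 4.46). The edgeR adjusted p was 0.192, the lowest value that any gene reached, shared with other genes such as Msln and Wt1. By unadjusted p Igfbp6 stood at rank 23 of the 13749 genes tested. DESeq2 called Igfbp6 (adjusted p = 0.000703), and also in each of the 8 fits with 1 library left out, at an adjusted p of at most 0.0152. Without ST14high replicate 1 the mean was 49.0 ± 12.4 CPM (SD, n = 3) and the log2 fold change 2.21 (SE 0.31; edgeR adjusted p = 0.0583).

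**Figure D2:**
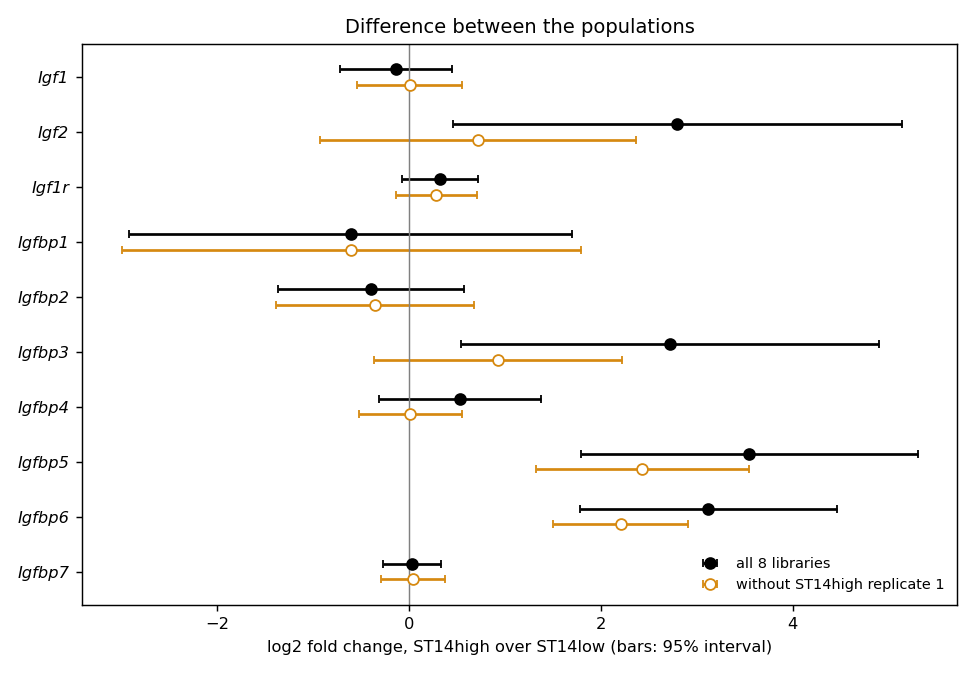
Log2 fold change of each gene, ST14high over ST14low, with its 95% interval from edgeR, for all 8 libraries (filled) and without ST14high replicate 1 (open). Without that library Igfbp5 and Igfbp6 are at 2.43 and 2.21, and Igf2, Igfbp3 and Igfbp4 are at 0.72, 0.93 and 0.02.

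Markers of mesothelium, the lining of the liver's outer surface, had their highest library of each population in common with both genes. All 6 markers analysed (Msln, Wt1, Upk3b, Upk1b, Lrrn4 and Bnc1, of 7 listed) were above 0, at a median log2 fold change of 3.47, and 0 passed edgeR's adjusted threshold while DESeq2 called 6. Their summed level was 812, 126, 182 and 194 CPM in ST14high and 28.3, 23.0, 56.7 and 19.1 CPM in ST14low, and none was at 0 in any library. Igfbp5 stood to this sum in a ratio of 1.62 to 2.38 in ST14high and 1.46 to 2.54 in ST14low, although the gene itself spanned a 56.7-fold range over the 8 libraries and the sum a 42.4-fold range. The ratio of Igfbp6 to the sum was 0.266 to 0.318 in ST14high and 0.318 to 0.391 in ST14low. Igfbp5 was 6.09 to 8.57 times the Igfbp6 CPM in ST14high and 3.77 to 7.97 times in ST14low.

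All 7 fibroblast markers were above 0 (median log2 fold change 2.25), and without ST14high replicate 1 there were 4 above 0 (median 0.99). DESeq2 called 1 of the 5 to which it gave an adjusted p, where it called 1.62% of all genes higher. It gave none to Col1a2 and Col3a1. Populations were separate for 3 of the 7 (Dcn, Col1a1 and Col3a1), higher in ST14high, where this held for 4.09% of all genes. All 4 smooth muscle markers were above 0 and called by DESeq2, and only Tagln had separate populations. With 1 library left out, DESeq2 called Tagln in all 8 fits, Cnn1 in 6, and Acta2 and Myh11 in 4 each. By edgeR 0 of either list passed the adjusted threshold. Among the 7 stellate cell and pericyte markers 5 were above 0, and 2 were below, Rgs5 (-0.47) and Reln (-0.07). Their sum overlapped between the populations. Of the 5, Des had a log2 fold change of 3.72 with separate populations and was called by DESeq2. Pdgfrb was above 0 with populations that overlapped. The 7 fibroblast markers, none at 0, reached 324 to 2151 CPM together in ST14high, against 77.9 to 228 CPM in ST14low, and the ratio of Igfbp5 to them ranged 7.15-fold. The 4 smooth muscle markers, none at 0, summed to 39.8 to 835 CPM in ST14high and 6.93 to 50.2 CPM in ST14low, and the Igfbp5 ratio ranged 25.1-fold. For the mesothelium sum the Igfbp5 ratio ranged 1.74-fold. The part of these cell types in the Igfbp5 and Igfbp6 levels was not tested.

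**Figure D3:**
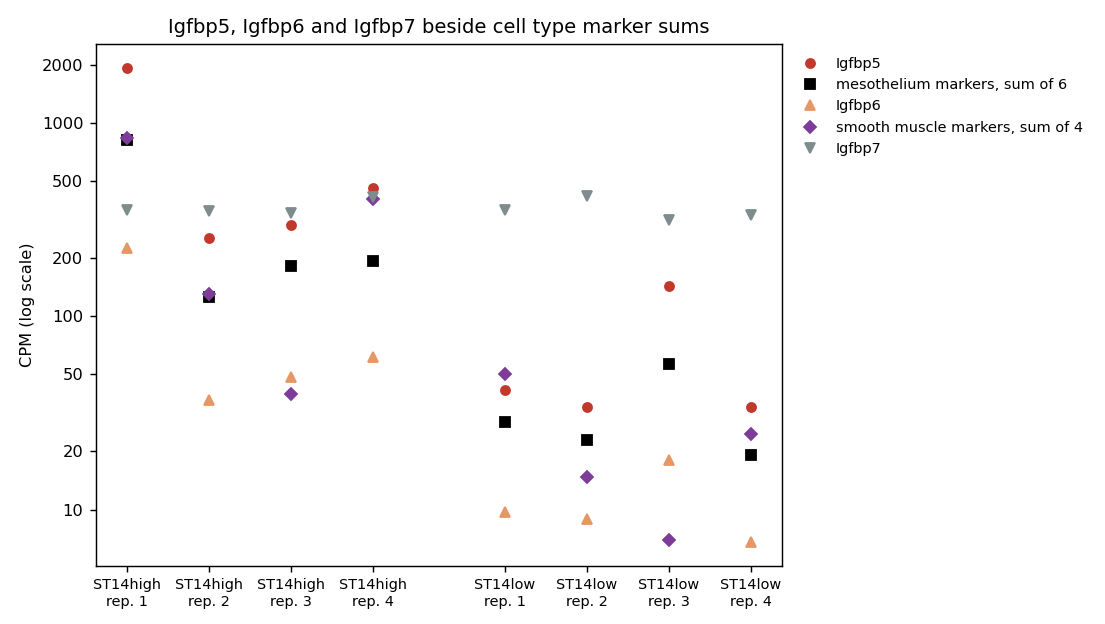
CPM on a log axis in each library for Igfbp5, Igfbp6 and Igfbp7 and for the summed markers of mesothelium (6 genes) and smooth muscle (4 genes), with ST14high on the left. Igfbp5, Igfbp6 and the mesothelium sum share their highest library in each population, while Igfbp7 stays between 313 and 418 CPM.

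Over all 10283 other genes with a mean of at least 10 CPM, the genes closest to Igfbp5 and Igfbp6 across the libraries were sought by the root mean square difference of centred log2 CPM over the 8 libraries. Those closest to Igfbp6 were Msln (mesothelin, a mesothelial surface protein; 0.129), Upk3b (uroplakin 3B, of mesothelium; 0.192) and Nbl1, a secreted BMP antagonist (0.225). Closest to Igfbp5 were Lrrn4, a mesothelial membrane protein (0.287), Lrp2 (megalin, an endocytic receptor; 0.304) and Upk3b (0.347). Between Igfbp5 and Igfbp6 the difference was 0.412, where their own SDs across libraries were 2.08 and 1.71 on the log2 scale. These values describe the 8 libraries and carry no test.

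Igfbp3 encodes the main carrier of IGF1 in blood, where it forms a complex with the acid-labile subunit. It was counted on chromosome 11 from 7106095 to 7113926, minus strand, of mm9. It was at 113, 9.13, 2.05 and 19.9 CPM in the ST14high libraries and 7.15, 4.45, 4.31 and 5.68 CPM in the ST14low ones. ST14high held both the highest library, replicate 1, and the lowest, replicate 3. The log2 fold change was 2.72 (SE 0.98; edgeR adjusted p = 0.429), and 0.93 (SE 0.58) without ST14high replicate 1. DESeq2 gave an adjusted p of 0.223, and called the gene without ST14high replicate 3 (adjusted p = 0.000187). The closest genes by the same measure were Sdcbp2, Gem, a small GTP-binding protein, and Emp1, a membrane protein of epithelia (0.517, 0.519 and 0.519). For Igf2 they were Grasp, Cyp2s1 and S100a6, a calcium-binding protein (0.364, 0.485 and 0.502), each highest in ST14high replicate 1. The acinar, fibroblast, mesothelium and smooth muscle marker sums were also highest in that library. Among these sums, the ratio of Igfbp3 to the sum ranged least for fibroblasts (9.04-fold) and most for acinar markers (277-fold). For Igf2 the least and the most were for the same lists, at 4.67-fold and 382-fold. In ST14high replicate 2 the acinar sum was 1511 CPM, with Igfbp3 at 9.13 CPM and Igf2 at 0.675 CPM. The part of these cell types in the Igfbp3 and Igf2 levels was not tested.

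Igfbp4 encodes a binding protein that inhibits IGF action until it is cleaved by the protease PAPP-A. It was counted on chromosome 11 between 98902573 and 98913957 (mm9). It was at 300.03, 117, 83.9 and 127 CPM in the ST14high libraries and 105, 118, 142 and 67.5 CPM in the ST14low ones. Apart from ST14high replicate 1 the ST14high libraries lay within the ST14low range. The log2 fold change was 0.54 (SE 0.38; edgeR adjusted p = 0.664), and 0.02 without that library.

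Igfbp7, the low-affinity member and a secreted protein of vessels and epithelia, had the smallest SD of log2 CPM over the 8 libraries among the 10 genes, 0.144. It was at 356, 349, 341 and 412 CPM in the ST14high libraries and 356, 418, 313 and 334 CPM in the ST14low ones. The populations overlapped throughout. Means of 364 ± 32.2 CPM in ST14high and 355 ± 45.4 CPM in ST14low (SD, n = 4 each) gave a log2 fold change of 0.04 (SE 0.14; edgeR adjusted p = 0.949), and the 95% interval from -0.27 to 0.34 bounds the difference on either side. The gene was counted on chromosome 5 between 77778264 and 77837070, minus strand, of mm9.

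Igfbp1 and Igfbp2 encode binding proteins that hepatocytes secrete, the first of them repressed by insulin. In mm9 Igfbp1 lies on chromosome 11 from 7097789 to 7102549 and Igfbp2 on chromosome 1 from 72871076 to 72899045. Igfbp1 was at 3.09, 5.36, 0 and 4.18 CPM in the ST14high libraries and 6.94, 4.25, 5.70 and 2.37 CPM in the ST14low ones. The count of 0 in ST14high replicate 3 allows a level of up to 0.0707 CPM (3 counts, counting error only), while the other libraries overlapped. Its log2 fold change was -0.61 (SE 1.03; edgeR adjusted p = 0.866). Genes closest to Igfbp1 were Cyp2e1, a hepatocyte cytochrome P450 (0.833), Stab2, a scavenger receptor of sinusoidal endothelium (0.863), and Pcdh12, an endothelial protocadherin (0.865), all at their lowest in the same library. In that library 4 of the 8 hepatocyte markers were also at their lowest of all libraries, Cps1 at 5.78 CPM, Cyp2e1 at 1.67 CPM, Serpina1a at 3.77 CPM and Apoa1 at 23.9 CPM. Alb, Ahsg, Ttr and Trf were not at their lowest there. The sum of the 8, at 12572 CPM, was mostly Alb (9359 CPM). All 8 endothelial markers were at their lowest in that library, at 19.1 CPM together. The macrophage and the lymphocyte and pan-leukocyte sums were lowest there too, at 237 and 0.0707 CPM. The part of these cell types in the Igfbp1 level was not tested. Igfbp2 was at 3.47, 5.48, 2.95 and 3.61 CPM in the ST14high libraries and 7.74, 6.75, 2.77 and 3.03 CPM in the ST14low ones. ST14low spanned the whole ST14high range, and the log2 fold change was -0.40 (SE 0.43; edgeR adjusted p = 0.778).

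Levels can be compared between genes only per length, for which the authors' RPKM (reads scaled by transcript length and library size) served. In that unit Igfbp7 ranked first in all 8 libraries, at 364 ± 43.0 RPKM in ST14high and 361 ± 39.8 RPKM in ST14low (SD, n = 4 each). In ST14high it was followed by Igfbp5 (122 ± 125), Igfbp4 (79.5 ± 43.6) and Igfbp6 (77.7 ± 68.6 RPKM), whose ranges overlapped each other. Next came Igf1 (27.6 ± 7.03) and Igf1r (17.7 ± 1.33 RPKM), which overlapped each other and lay below the range of Igfbp6. Igfbp3 (15.0 ± 20.9 RPKM) spanned 0.90 to 45.96 RPKM and overlapped Igf1r, Igf1 and Igfbp6. In ST14low Igfbp4 came second at 57.0 ± 16.2 RPKM, then Igf1 at 30.7 ± 11.7 and Igf1r at 14.4 ± 3.43, with Igfbp5 at 11.3 ± 9.60 and Igfbp6 at 9.65 ± 4.37 RPKM. There Igf1 lay above Igf1r in all 4 libraries without overlap, whereas Igf1r and Igfbp5 overlapped. Igfbp2 (3.35 ± 1.09 and 4.41 ± 2.17 RPKM in ST14high and ST14low), Igfbp1 (2.32 ± 1.75 and 3.54 ± 1.44) and Igf2 (0.738 ± 1.10 and 0.115 ± 0.0387) were at the low end, as was Igfbp3 in ST14low (2.42 ± 0.604 RPKM).

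The make-up of the binding protein transcripts was set out as shares. The 7 Igfbp genes summed to 1009, 523, 481 and 645 RPKM in ST14high and to 448, 499.97, 446 and 403 RPKM in ST14low. Igfbp7 made up 32.4%, 69.96%, 70.8% and 65.7% of that sum in ST14high and 80.7%, 83.0%, 71.8% and 86.1% in ST14low, with no overlap although its own level was similar. Igfbp5 held 30.6%, 8.86%, 10.7% and 12.8% in ST14high and 1.64%, 1.18%, 5.75% and 1.53% in ST14low. Igfbp6 held 6.45% to 17.8% in ST14high and 1.53% to 3.60% in ST14low, likewise without overlap. Igfbp4 kept a share of 11.5% ± 2.21 in ST14high and 12.6% ± 3.26 in ST14low (SD, n = 4 each). Without ST14high replicate 1 the ST14high shares were 68.8% ± 2.72 for Igfbp7, 10.8% ± 1.996 for Igfbp5 and 7.93% ± 1.28 for Igfbp6 (SD, n = 3). The shares were not tested, and the RPKM values carry no interval of their own.

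**Figure D4:**
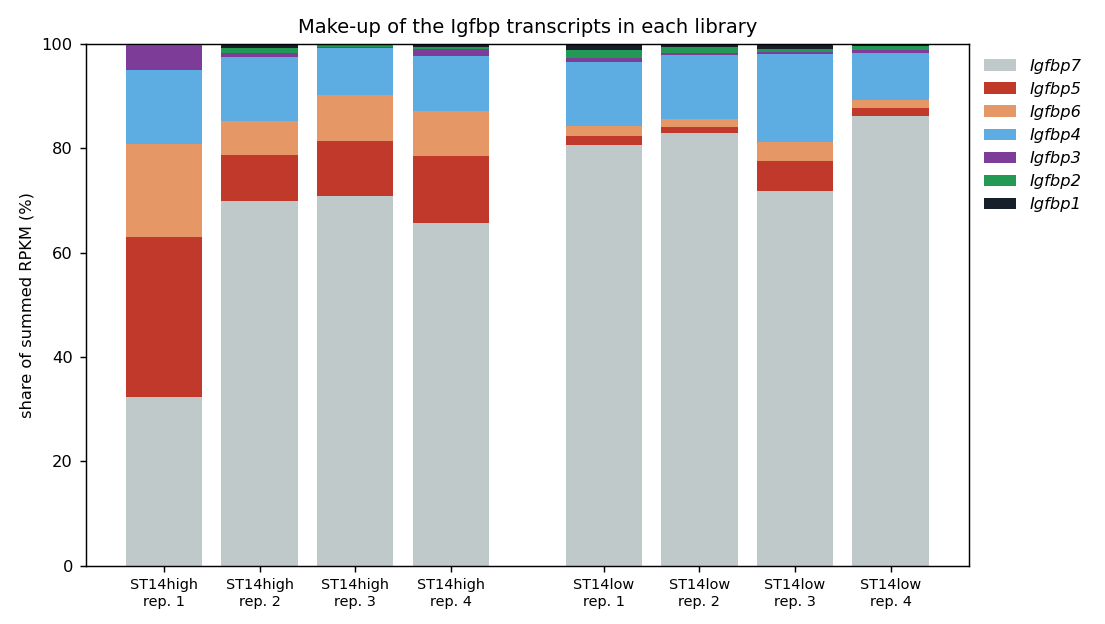
Share of each of the 7 Igfbp genes in their summed RPKM, as stacked bars in percent, 1 bar per library, with ST14high on the left. Igfbp7 takes 32.4% to 70.8% in ST14high and 71.8% to 86.1% in ST14low, and the Igfbp5 and Igfbp6 bands are wider in ST14high.

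Other genes of the pathway were taken from 6 lists with 77 genes, of which 73 were analysed and 61 tested. By edgeR 0 of them passed the adjusted threshold, with 8 below 0.05 before adjustment, where 6.89% of all genes were higher and 2.68% lower. By DESeq2 3 of the 61 were called, all higher, against 1.62% of all genes higher and 0.103% lower. Receptors and adaptors lay near 0: of 10 tested genes 3 were above and 7 below 0 (median log2 fold change -0.04). Insr, the insulin receptor, averaged 236 ± 24.6 CPM in ST14high, beside 251 ± 81.1 CPM in ST14low, and Igf2r, which clears IGF2 from the cell surface, 219 ± 25.2 and 221 ± 30.2 CPM (SD, n = 4 each). In the PI3K and Akt arm 13 of 19 genes were above 0, or 8 without ST14high replicate 1. The median was 0.06, or -0.04 without that library. The kinases Gsk3b and Akt1 had log2 fold changes of -0.01 (SE 0.20) and -0.07 (SE 0.17).

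The list of ternary complex genes, binding protein proteases and their inhibitors also held Igfbpl1. Of its 9 tested genes 6 were above 0 (median log2 fold change 0.85, or -0.06 without ST14high replicate 1). The 2 most abundant were Plg (plasminogen, a protease precursor made by hepatocytes), with 48.1 ± 15.9 CPM in ST14high, against 74.7 ± 18.6 CPM in ST14low, and Mmp7 (matrilysin), at 32.8 ± 24.1 and 25.8 ± 5.54 CPM (SD, n = 4 each). The log2 fold change of Mmp7 was 0.35, and -0.29 without ST14high replicate 1, which was at 67.8 CPM. Pappa and Htra1, named after their values were seen, were called by DESeq2 (adjusted p = 0.0178 and 0.00232) and not by edgeR (adjusted p = 0.284 and 0.251). With 1 library left out, DESeq2 called Pappa in 4 of 8 fits (adjusted p up to 0.131) and Htra1 in all 7 fits that gave it an adjusted p. Pappa encodes the protease that cleaves IGFBP4, and was at 12.5, 1.67, 2.10 and 9.39 CPM in the ST14high libraries and 0.638, 1.28, 0.77 and 1.40 CPM in the ST14low ones. Every ST14high library lay above the ST14low libraries, which held for 4.09% of all genes, but the gap to replicate 2 was small. Without ST14high replicate 1 the log2 fold change of 2.62 (SE 0.71) was 2.07. Htra1, a secreted serine protease that itself carries an IGFBP-type domain, was at 55.3, 8.18, 8.49 and 15.1 CPM in the ST14high libraries and 4.85, 2.45, 3.85 and 3.96 CPM in the ST14low ones. Its populations were also separate, and its log2 fold change of 2.52 (SE 0.62) was 1.48 without ST14high replicate 1.

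**Figure D5:**
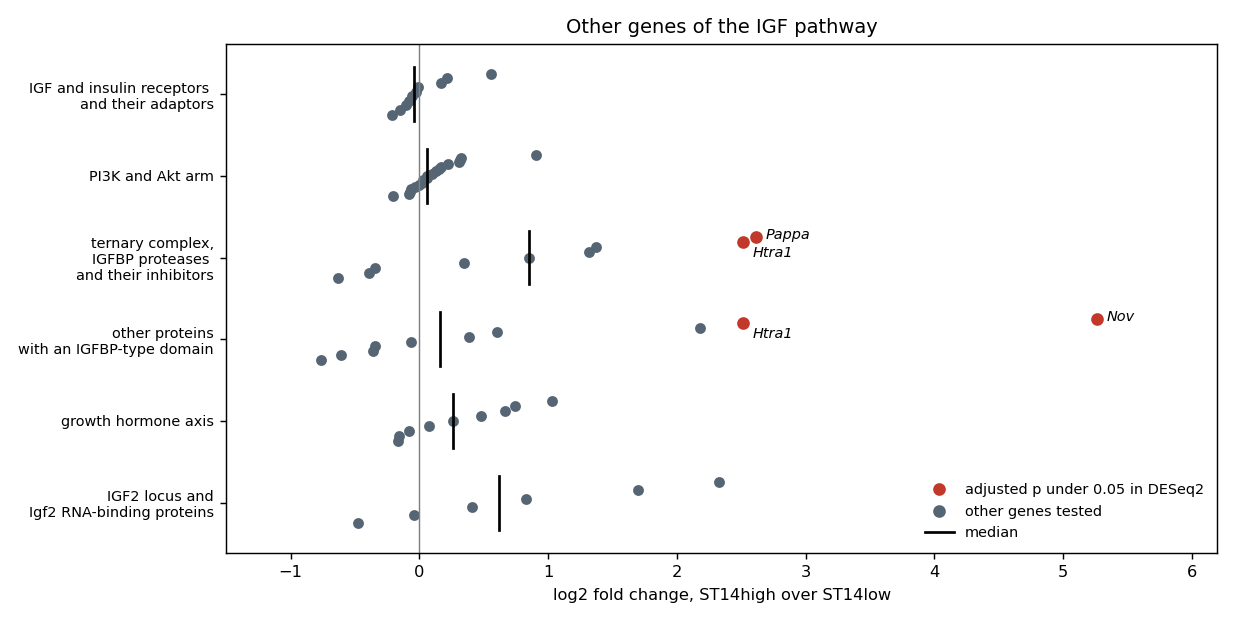
Log2 fold change, ST14high over ST14low, of every tested gene in the 6 pathway lists, with the list median as a bar and genes with an adjusted p under 0.05 in DESeq2 in red. Those are Pappa at 2.62, Htra1 at 2.52 (in 2 lists) and Nov at 5.27; the medians run from -0.04 to 0.85.

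In the list drawn up for other proteins with an IGFBP-type domain, 5 of 10 tested genes were above and 5 below 0. The domain was not checked in their sequences, Igsf10 among them, and Htra3 was counted with the proteases only. Cyr61 (CCN1), a matricellular protein, was at 2063, 2204, 2195 and 1781 CPM in the ST14high libraries and 3535, 5501, 2442 and 2509 CPM in the ST14low ones. All ST14high libraries lay below the ST14low libraries, which held for 2.33% of all genes, at a log2 fold change of -0.76 (SE 0.26; edgeR adjusted p = 0.398). Ctgf (CCN2), its relative, overlapped, with means of 504 ± 121 CPM in ST14high, against 528 ± 230.1 CPM in ST14low (SD, n = 4 each). Nov (CCN3), a further relative named after its values were seen, was at 9.02, 2.66, 0.613 and 9.42 CPM in the ST14high libraries and 0, 0.102, 0 and 0.343 CPM in the ST14low ones (edgeR adjusted p = 0.202, DESeq2 0.000226), on 567 counts in all. In the growth hormone axis 6 of 9 tested genes were above 0 (median log2 fold change 0.26, or 0.075 without ST14high replicate 1). Socs3, an inhibitor of cytokine signalling, averaged 196 ± 185 CPM in ST14high, beside 95.6 ± 40.1 CPM in ST14low, and its log2 fold change of 1.03 was 0.12 without ST14high replicate 1; Jak2, the kinase of the growth hormone receptor, was at 82.7 ± 4.87 and 78.8 ± 23.8 CPM (SD, n = 4 each). For the Igf2 locus and Igf2 mRNA-binding proteins 4 of 6 tested genes were above 0, with a median of 0.62. Without ST14high replicate 1 there were 5 above 0, with a median of 0.48. Ctcf, which binds the imprinting control region of the locus, averaged 125 ± 10.1 CPM in ST14high, beside 129 ± 23.9 CPM in ST14low (SD, n = 4 each). Plagl1, an imprinted transcription factor, averaged 36.7 ± 20.6 and 20.7 ± 6.86 CPM (SD, n = 4 each). Its log2 fold change of 0.83 was 0.36 without ST14high replicate 1.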

How the data were processed

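Per the labels' protocols, RNA was extracted from sorted cells with TRIzol, and an Illumina TruSeq V2.0 kit gave the libraries. The submitters' processing notes name CASAVA 1.8.2, Bowtie 1.0.0 and build mm9; for counting, neither program, annotation nor strand setting is given in the sources used here. As deposited, and per the file headers, each table gives a raw count and an RPKM value per RefSeq transcript. The deposited counts are whole numbers without normalization, and the authors scaled the RPKM by length and library size. From 26005 rows, 1 transcript per symbol was kept, the one with most reads over all libraries. Counts were tested with edgeR 4.0.16 (quasi-likelihood, TMM factors, filterByExpr, population as the only term), with Benjamini-Hochberg adjustment over 13749 genes, in R 4.3.3. DESeq2 1.42.0 and limma 3.58.1 (voom) were alternatives. CPM use TMM-scaled library sizes; log2 CPM have a prior count of 2. The procedure was also run on simulated data, with the same dispersion for every gene and no outlying library. That setting differs from these data, so it does not show how the test performs on them. The genes, gene lists and tests were chosen with earlier results of these data known. Besides the 10 genes, named genes were the 2 of highest mean CPM per pathway list, St14, and the 3 closest genes of each of the 10 whose log2 CPM had an SD of at least 1. Others are stated as named after their values were seen. Start and end positions are as deposited. Tables and plots used Python 3.11.15, pandas 2.3.3, scipy 1.17.1 and matplotlib 3.10.9.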

Additional observations from a re-analysis of the deposited data

Results flagged for a closer look

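Within a population of 4 libraries, a value was singled out when its gap to the nearest of the others exceeded Dixon's 95% critical share of the whole range. This was asked of 80 sets of 4 values and met 16 times, where chance gives about 1 in 20 for independent, normally distributed values. The sets came from the same 8 libraries and were not independent, so the 16 do not measure an excess over chance. Most of the values were of ST14high replicate 1. There Igf2 was at 10.2 CPM against 0.504 to 0.967 CPM in the other ST14high libraries, Igfbp3 at 113 CPM against 2.05 to 19.9 CPM, Igfbp5 at 1926 CPM against 253 to 461 CPM and Igfbp6 at 225 CPM against 36.9 to 61.6 CPM. In that library the Igfbp7 share of the summed RPKM was 32.4%, against 65.7% to 70.8%. Socs3 was at 471 CPM there, against 77.2 to 130.2 CPM, and Plagl1 at 67.4 CPM, against 24.0 to 29.7 CPM. Its marker sums were 812 CPM for mesothelium, 2151 CPM for fibroblasts and 10348 CPM for pancreatic acinar cells, against at most 194, 447 and 1511 CPM.

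ST14low replicate 3 stood apart in Igfbp5, at 144 CPM against 34.0 to 41.4 CPM in the other ST14low libraries, and in its share of the summed RPKM, at 5.75% against 1.18% to 1.64%. Insr was at 199.7 CPM in ST14high replicate 4, against 244 to 251 CPM. St14 was at 353 CPM in ST14high replicate 3, against 285 to 290.2 CPM. Ctcf was at 93.5 CPM in ST14low replicate 2, against 136 to 144 CPM. Acinar markers summed to 116 CPM in ST14low replicate 1, against 4.93 to 10.3 CPM.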

How the results depend on the processing

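Depth limits Igf2, Igfbp1 and Igfbp2 most, with 270, 684 and 869 counts over 8 libraries. The count of 0 genes called by edgeR was 0 also with DESeq2's size factors, upper-quartile factors, no low-count filter, a stricter filter at 5 CPM, the longest transcript, limma's voom and without each library in turn. DESeq2's Wald test called 234 genes, 2 of the 10 family genes and 3 pathway genes. Without 1 library each, chosen after seeing the data, DESeq2 called 161 to 421 genes, 1 to 3 family genes and 1 to 5 pathway genes; counting edgeR too, the lowest of each was 0. Without ST14high replicate 1, also chosen after seeing the data, the genes whose populations did not overlap, higher in ST14high, numbered 926 (6.74%) in place of 563, and the family genes 2 in both cases.

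With the replicate number as a block, edgeR called 2 genes, the smooth muscle markers Acta2 and Myh11, and 0 of the family. The numbers did not pair the libraries: same-numbered libraries had correlations of deviations of 0.0521, 0.0522, -0.125 and 0.00534 across genes.

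Fold changes of the family kept their sign in all settings but these. Igfbp2 was at 0.065 with voom and Igfbp7 at -0.0016 with upper-quartile factors. With 1 library left out, by edgeR or DESeq2, Igf1 ranged from -0.27 to 0.13, Igfbp4 from -0.0021 to 0.74 and Igfbp7 from -0.038 to 0.12 on the log2 scale. Among named pathway genes, voom gave 0.071 for Akt1, 0.32 for Ctgf and -0.026 for Jak2, and the block 0.014 for Gsk3b. With 1 library left out, log2 fold changes ranged from -0.17 to 0.11 for Akt1, -0.18 to 0.018 for Ctcf, -0.25 to 0.24 for Ctgf, -0.17 to 0.11 for Gsk3b, -0.11 to 0.073 for Igf2r, -0.29 to 0.083 for Insr, -0.084 to 0.26 for Jak2 and -0.30 to 0.60 for Mmp7. The cause of these changes was not tested. Shares of the binding proteins moved by less than their SD with the other Igfbp7 transcript or the longest transcripts.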

Other observations

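Among the binding protein genes, 4 lie in neighbouring pairs. On chromosome 1 (mm9) the end of Igfbp2 and the start of the Igfbp5 interval are 5593 bases apart, with the genes on opposite strands. Igfbp5 had a log2 fold change of 3.55 (SE 0.78) and Igfbp2 of -0.40 (SE 0.43), ST14high over ST14low. On chromosome 11 the intervals of Igfbp1 and Igfbp3 are 3546 bases apart, also on opposite strands, with log2 fold changes of -0.61 (SE 1.03) for Igfbp1 and 2.72 (SE 0.98) for Igfbp3, the second of them at 0.93 without ST14high replicate 1. The difference between neighbours was not tested.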
